A study of Mus musculus with 6 samples.

Results

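The large subunit of the mitochondrial ribosome is represented on these arrays by genes whose symbol in the platform annotation is Mrpl followed by a number. Of 49 such genes, 46 had a row naming that gene alone, out of 18820 genes with such a row, and the row with the highest mean over all 6 arrays stood for each gene. Mrpl24, Mrpl43 and Mrpl53 shared their only row with a neighbouring gene and are not among the 46. All 46 passed the filter on low values, which kept the 11292 genes above the 40th percentile of mean level (a log2 level of 3.87). The cells were myotubes of C2C12, a permanent line of mouse muscle precursors that fuse into multinucleated fibres in low serum. The silenced group received a locked nucleic acid inhibitor of miR-382-5p at 50 nM and the control group a negative control oligonucleotide, both at day 6 of differentiation. RNA was taken 24 h later, at day 7, and hybridised to 1-colour Affymetrix whole-transcript arrays. There were 3 arrays per group, with replicate numbers 1 to 3 in both groups. Whether these came from separate cultures is not in the labels, and p-values therefore reflect only the spread among the samples at hand, which may be technical.

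The mitochondrial ribosome translates the few messages encoded by mitochondrial DNA, which specify core proteins of the oxidative phosphorylation complexes. Its proteins are encoded in the nucleus, made in the cytosol and imported. The large subunit joins amino acids at the peptidyl transferase centre, releases the chain through an exit tunnel at the inner membrane, and carries mobile stalks that receive translation factors and a central protuberance that contacts the small subunit. The series places its question in the balance between proteins of nuclear and mitochondrial origin.

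The inhibited microRNA is shown first, because it is the agent that separates the groups. Its mature form lies at chr12:109733781-109733802 on the plus strand of GRCm38.p6, and the capitals mark the seed, bases 2 to 8 (RefSeq).

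miR-382-5p: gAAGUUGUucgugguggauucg

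No match to this seed was sought in the messages of the 46 genes, since no transcript sequence was used here.

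Start site sequences were available from RefSeq (GRCm38.p6) for 40 of the 46 genes, as 45 windows of 250 bases before to 50 bases after a start site. They were searched on both strands for letters associated with general activators of genes for mitochondrial proteins: GCGCATGC for NRF1, CCGGAAG for ETS factors such as GABP, AAGATGGC for YY1, CCAAT, and the E-box CACGTG. The NRF1 letters occurred in 15.6% of the large subunit windows, against 5.18% of windows of all tested genes and 2.71% of all 32851 windows. The ETS letters occurred in 28.9%, against 17.0% and 8.86%, and the YY1 letters in 13.3%, against 4.35% and 2.75%. CCAAT was in 35.6% of large subunit windows and 37.4% of all windows, and by gene in 35.0% of the 40 genes and 43.0% of tested genes. The E-box letters were in 6 large subunit windows, 3 of them overlapping windows of Mrpl2, so that by gene they occurred in 4 of 40 (10.0%), beside 11.8% of tested genes. Bases G and C made up 57.9% of large subunit windows, 60.8% of tested-gene windows and 53.8% of all windows. A match is a string of letters and not a measured binding site.

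The 3 sequences below are the 250 bases before the start sites of Mrpl32 (chr13:14613038-14613287, minus strand), Mrpl9 (chr3:94443086-94443335, plus strand) and Mrpl34 (chr8:71464676-71464925, plus strand). They show what such a start region looks like in a pair of genes with lower means in silenced arrays and in the gene with the highest difference. They were picked after the matches had been seen, and capitals mark every match to the searched letters.

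Mrpl32: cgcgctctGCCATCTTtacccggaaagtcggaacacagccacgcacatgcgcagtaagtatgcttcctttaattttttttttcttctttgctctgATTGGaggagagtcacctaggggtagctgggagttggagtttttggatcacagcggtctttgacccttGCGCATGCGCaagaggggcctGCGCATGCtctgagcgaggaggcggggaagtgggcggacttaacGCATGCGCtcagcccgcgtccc

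Mrpl9: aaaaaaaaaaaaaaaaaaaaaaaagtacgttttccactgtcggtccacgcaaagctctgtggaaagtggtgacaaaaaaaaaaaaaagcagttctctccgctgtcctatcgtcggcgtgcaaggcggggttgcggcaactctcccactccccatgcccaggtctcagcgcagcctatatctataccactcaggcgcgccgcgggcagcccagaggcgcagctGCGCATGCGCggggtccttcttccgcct

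Mrpl34: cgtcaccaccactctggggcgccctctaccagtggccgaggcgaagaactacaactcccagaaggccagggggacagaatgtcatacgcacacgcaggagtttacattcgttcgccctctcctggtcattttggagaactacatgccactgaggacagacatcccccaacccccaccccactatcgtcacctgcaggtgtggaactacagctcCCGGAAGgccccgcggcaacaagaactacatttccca

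Mrpl32 carries 4 matches to the NRF1 letters, at 87, 85, 66 and 22 bases before the start, the first pair overlapping. It also has a YY1 match at 242 bases and a CCAAT match, on the other strand, at 155 bases. Mrpl9 has a pair of overlapping NRF1 matches at 28 and 26 bases, and Mrpl34 an ETS match at 37 bases. Of the 7 large subunit genes with the NRF1 letters, 6 had lower means in silenced arrays and 1 had a higher mean. Of the 13 with the ETS letters, 9 were lower and 4 higher. The NRF1 letters were chosen after values had been seen. A longer form of 10 bases with any base at its position 5, searched earlier, was in 22.2% of large subunit windows and 4.60% of all windows. Its share in windows of tested genes, which was higher than in all windows for the shorter letters, was not counted. All 10 of the genes that held the longer form were lower. The split therefore moves with the letters chosen. Among all 46 genes 37 were lower, a count that includes genes without a start site sequence.

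Markers of myotubes were high, though not those alone. All 8 myotube markers, among them the muscle creatine kinase gene Ckm and the skeletal actin gene Acta1, had group means between 9.20 and 12.28. The 3 adipocyte and 3 leukocyte markers with a row read between 2.34 and 3.24 in their means over arrays, below the filter. Of the myoblast markers, Cdh15 read 9.63, the proliferation gene Mki67 9.45, Myf5 7.48 and Pax7 5.72 in control arrays, all above the filter. Of the 4 fibroblast markers, the matrix genes Col1a1 (10.74) and Dcn (10.71) were high in control arrays, Pdgfra read 6.37, and Thy1 (3.24) lay below the filter. Myotube markers had a mean over the list of 10.98, 10.91 and 11.01 in control replicates 1 to 3 and of 10.98, 11.03 and 11.18 in silenced replicates 1 to 3. Silenced replicate 1 lay within the control range, and the part of this difference in the results on ribosomal genes was not tested. In bulk RNA, fewer cells of a type and less RNA per cell cannot be told apart. The 6 arrays correlated at 0.985 to 0.995 over the tested genes.

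Most large subunit genes had slightly lower means in silenced arrays, and no gene differed beyond the spread between arrays by the adjusted test. Of the 46, 37 (80.4%) had a lower mean, beside 47.3% of all tested genes, and 9 had a higher mean. The median difference was -0.086 on the log2 scale, beside 0.0089 for all tested genes. Differences ran from -0.24 for Mrpl48 to 0.23 for Mrpl34, each a 1.18-fold difference. In 25 genes the difference was within 0.1 of 0, and in 3 it exceeded 0.2 in size.

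By limma, 0 of the 46 genes passed an adjusted p under 0.05, as did 0% of all tested genes, and the smallest adjusted p among the 46 was 0.871. At an unadjusted p under 0.05 there was 1 large subunit gene, Mrpl48, beside 4.8% of all tested genes. When the fit held the replicate number as a block, again 0 passed (0% of all genes, smallest adjusted p among the 46 of 0.464). The unadjusted count was then 3, namely Mrpl4, Mrpl34 and Mrpl48, beside 10.3% of all genes. As far as the spread among these arrays goes, the 95% confidence interval left out a fall of 0.5 or more for 44 of the 46 genes, the exceptions being Mrpl18 and Mrpl22, and lay within 1 in either direction for all 46.

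**Figure D1:**
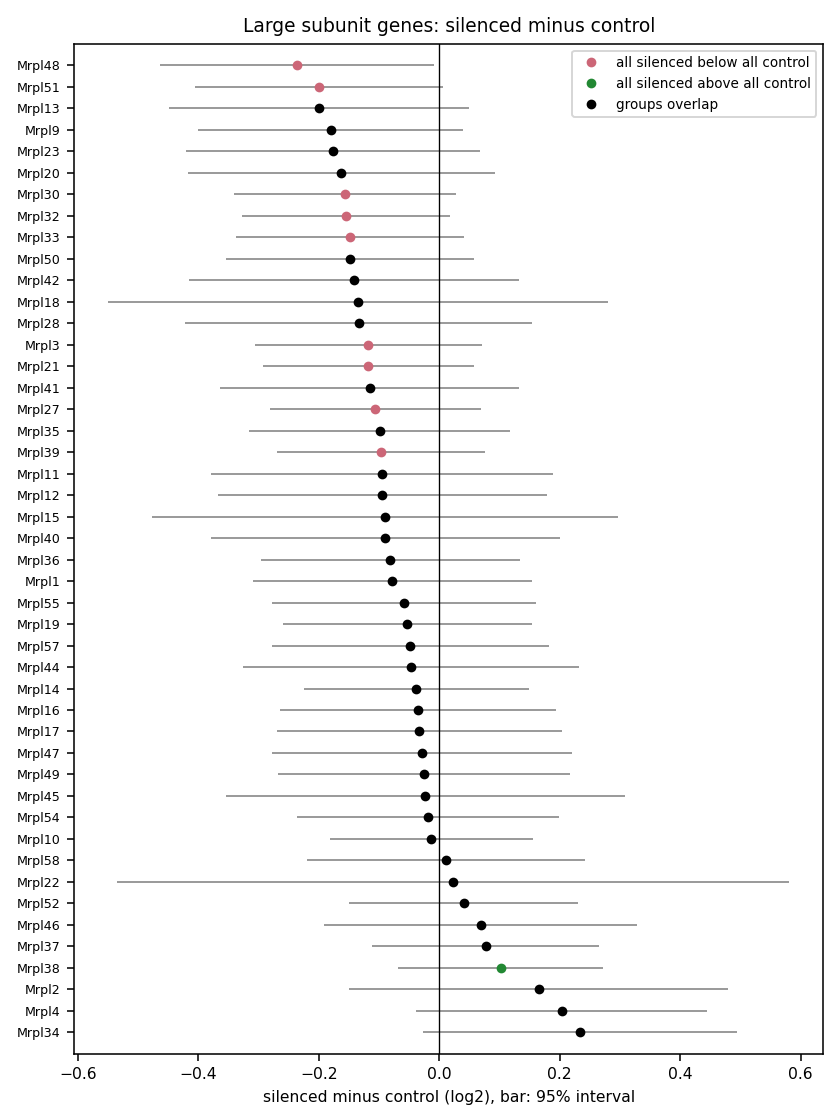
Difference of silenced minus control (log2) for each of the 46 large subunit genes, ordered by size, with limma's 95% confidence interval as a bar. Red points are the 9 genes whose 3 silenced values all lay below the 3 control values, the green point is Mrpl38, where they all lay above, and black points are genes whose groups overlap; 37 points lie left of 0.

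The groups did not overlap for 10 genes. In 9 genes all silenced values lay below all control values (19.6%, beside 4.87% of all tested genes), and in 1 they lay above (2.17%, beside 6.94%). The 9 were Mrpl3, Mrpl21, Mrpl27, Mrpl30, Mrpl32, Mrpl33, Mrpl39, Mrpl48 and Mrpl51. For Mrpl27 and Mrpl51 this depends on the row used. A second row of each, with a lower mean level, differed in the other direction, by 0.052 and 0.054. Within same-numbered pairs of arrays, 12 genes were lower in all 3 pairs (26.1%, beside 15.8%) and 5 were higher in all 3 (10.9%, beside 19.7%).

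The central protuberance held both the gene with the lowest difference and the only one with all silenced values above control. Of its 6 genes, 3 had lower and 3 higher means, with a median of -0.040. Mrpl48, a protein of the protuberance without a bacterial counterpart (chr7:100545779-100608301), read 7.52, 7.47 and 7.74 in control replicates 1 to 3 and 7.41, 7.29 and 7.32 in silenced replicates 1 to 3. All silenced values were below all control values, but the gap between the groups was small next to the spread of the controls. The means were 7.58 ± 0.14 and 7.34 ± 0.06 (SD, n = 3), a difference of -0.24 ± 0.097 (SE; 95% interval -0.46 to -0.0089; limma, adjusted p = 0.871). Without control replicate 3 the difference was -0.15. A second row, shared with the neighbouring symbol Rab6a and not used for the gene, read 5.81, 5.79 and 5.64 in control and 5.45, 5.47 and 5.53 in silenced arrays, also without overlap. The positions of the probes were not given for either row, and which of them reflects this locus was not tested.

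Mrpl38, likewise of the protuberance, read 8.22, 8.17 and 8.25 in control and 8.30, 8.30 and 8.34 in silenced arrays. It was the 1 gene whose silenced values all exceeded its control values. Its difference was 0.10 ± 0.073 (SE; 95% interval -0.07 to 0.27; limma, adjusted p = 0.871). Mrpl58, a peptidyl-tRNA hydrolase that is also a structural protein of the subunit, read 8.65, 8.85 and 8.87 in control and 8.76, 8.92 and 8.72 in silenced arrays. Its lowest value was control replicate 1 and its highest silenced replicate 2, the groups overlapping between them, with a difference of 0.010 ± 0.098 (SE; 95% interval -0.22 to 0.24; adjusted p = 0.990). The remaining protuberance genes Mrpl40, Mrpl46 and Mrpl18 differed by -0.09, 0.07 and -0.13, none of them without overlap.

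Genes with a bacterial counterpart that sit elsewhere in the core formed the largest role group, and its median was the lowest of the 5 role groups. Of its 19 genes, 16 had lower means, with a median difference of -0.11, and all silenced values lay below control for 6 of the 19 (31.6%, beside 19.6% of the 46 and 4.87% of all tested genes). Mrpl32, whose protein is matured by the m-AAA protease before it joins the ribosome, read 7.85, 7.93 and 7.93 in control and 7.78, 7.75 and 7.72 in silenced arrays. Its values were tight within each group and did not overlap. The means were 7.91 ± 0.04 and 7.75 ± 0.03 (SD, n = 3), a difference of -0.16 ± 0.074 (SE; limma, adjusted p = 0.871).

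Mrpl30 read 9.04, 8.97 and 9.09 in control and 8.94, 8.83 and 8.86 in silenced arrays, a difference of -0.16 ± 0.078 (SE; adjusted p = 0.871). Here silenced replicate 1 came within 0.1 of the lowest control. Mrpl9 read 7.23, 7.38 and 7.43 in control and 7.28, 7.14 and 7.08 in silenced arrays, a difference of -0.18 ± 0.094 (SE; adjusted p = 0.871). For Mrpl9 the arrays numbered 1 crossed, so that silenced replicate 1 lay above control replicate 1 and the groups overlapped. Mrpl3, Mrpl21, Mrpl27 and Mrpl33 differed by -0.12, -0.12, -0.11 and -0.15, each without overlap. Mrpl13 (-0.20) and Mrpl20 (-0.16) differed by as much or more with overlap.

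The same core group also held 3 genes with higher means, Mrpl34, Mrpl4 and Mrpl2, and all 3 were higher in every same-numbered pair. Mrpl34, a small protein conserved from bacteria (chr8:71464926-71465753), read 7.93, 7.78 and 7.72 in control and 8.22, 8.04 and 7.87 in silenced arrays. In both groups replicate 1 was highest and replicate 3 lowest, and control replicate 1 lay above silenced replicate 3. The means were 7.81 ± 0.11 and 8.04 ± 0.17 (SD, n = 3), a difference of 0.23 ± 0.11 (SE; 95% interval -0.03 to 0.49; limma, adjusted p = 0.871, and 0.464 with the block), and 0.15 without silenced replicate 1.

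Mrpl4, whose protein reaches into the exit tunnel, read 7.08, 7.33 and 7.19 in control and 7.26, 7.43 and 7.51 in silenced arrays. Its difference was 0.20 ± 0.10 (SE; adjusted p = 0.871), with silenced replicate 1 inside the control range. Mrpl2, which lies close to the peptidyl transferase centre, read 7.49, 7.72 and 7.66 in control and 7.54, 8.02 and 7.82 in silenced arrays. Its difference of 0.17 ± 0.13 (SE; adjusted p = 0.878) was smaller than the gap between its arrays numbered 1 and 2 in either group, and ran from 0.051 without silenced replicate 2 to 0.29 without silenced replicate 1.

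**Figure D2:**
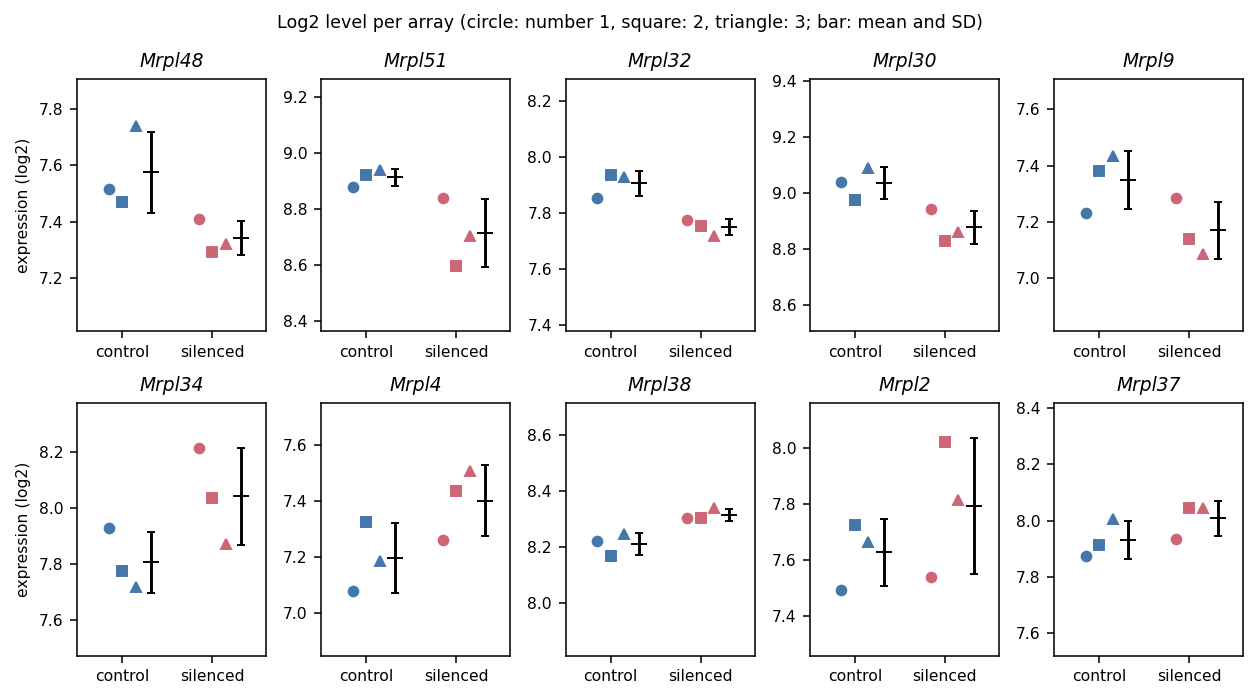
Log2 level on each array (circles number 1, squares number 2, triangles number 3; blue control, red silenced) with mean and SD, for the 5 genes with the smallest p and a lower mean (upper row) and the 5 with a higher mean (lower row). Mrpl48, Mrpl51, Mrpl32 and Mrpl30 do not overlap between groups, nor does Mrpl38, while Mrpl9, Mrpl34, Mrpl4, Mrpl2 and Mrpl37 do; axes span the same range of log2 units around different levels.

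Among 12 proteins particular to mitochondria outside the protuberance and the tunnel exit, 10 genes had lower and 2 higher means (median -0.053). Mrpl51 (chr6:125192200-125194392) read 8.88, 8.92 and 8.94 in control and 8.84, 8.60 and 8.70 in silenced arrays. All silenced values lay below control, with a difference of -0.20 ± 0.088 (SE; adjusted p = 0.871). That reading depends on the row, and where the probes of either row lie was not given, so which of them reflects this locus, rather than a similar sequence elsewhere, was not tested. The second Mrpl51 row, with a lower mean level, read 8.34, 7.38 and 7.87 in control and 8.03, 7.86 and 7.85 in silenced arrays, a difference of 0.054 in the other direction, with a control range far wider than either group of the first row.

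Mrpl37 read 7.87, 7.91 and 8.00 in control and 7.93, 8.05 and 8.04 in silenced arrays, a difference of 0.077 ± 0.080 (SE; adjusted p = 0.898). It was higher in each same-numbered pair although the groups overlapped. Mrpl41 read 8.11, 8.39 and 8.32 in control and 8.26, 8.18 and 8.03 in silenced arrays (-0.12 ± 0.11, SE; adjusted p = 0.885), with the arrays numbered 1 again running against the other pairs. Mrpl44, an RNase III-like protein, read 5.50, 5.69 and 5.79 in control and 5.55, 5.80 and 5.48 in silenced arrays (-0.047 ± 0.12, SE; adjusted p = 0.963). Its highest and its lowest value were both silenced arrays. Mrpl52 read 9.07, 9.20 and 9.18 in control and 9.13, 9.19 and 9.25 in silenced arrays (0.040 ± 0.081, SE; adjusted p = 0.950). The groups overlapped in part, with control replicate 1 lowest and silenced replicate 3 highest. Mrpl39 was the other gene of this group without overlap (-0.096).

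The 4 stalk genes all had lower means, with a median of -0.086, and none was without overlap. Mrpl12, which forms the mobile stalk that recruits translation factors, read 8.51, 8.14 and 8.13 in control and 8.20, 8.17 and 8.13 in silenced arrays. A single array, control replicate 1, stood apart from the other 5, and without it the difference of -0.095 ± 0.12 (SE; adjusted p = 0.908) became 0.030. That reading depends on the row. A second Mrpl12 row, with a lower mean level, read 7.49, 7.49 and 7.34 in control and 7.56, 7.34 and 7.31 in silenced arrays, where control replicate 1 did not stand apart. Mrpl11, at the base of that stalk, read 7.11, 6.89 and 7.05 in control and 7.11, 6.70 and 6.95 in silenced arrays (-0.095 ± 0.12, SE; adjusted p = 0.910). Mrpl10, which holds Mrpl12 on the ribosome, had the narrowest range of the 46, with all arrays between 8.62 and 8.70 and a difference of -0.013; it was picked out after its values were seen. Mrpl1, of the opposite stalk, differed by -0.078.

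Around the tunnel exit, 4 of 5 genes had lower means, with a median of -0.029, and none was without overlap. Mrpl45, which ties the ribosome to the inner membrane, read 8.44, 8.48 and 8.79 in control and 8.72, 8.31 and 8.61 in silenced arrays (-0.023 ± 0.14, SE; 95% interval -0.35 to 0.31; adjusted p = 0.984). Mrpl22, at the rim of the exit, read 4.27, 4.13 and 4.56 in control and 4.75, 3.81 and 4.47 in silenced arrays (0.023 ± 0.24, SE; adjusted p = 0.991). It had the widest spread of the 46, and its silenced arrays numbered 1 and 2 were the extremes of all 6. Mrpl23, Mrpl17 and Mrpl47 differed by -0.18, -0.033 and -0.029.

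Averaged over the 46 genes, the level per array was 7.64, 7.65 and 7.71 in control replicates 1 to 3 and 7.67, 7.57 and 7.58 in silenced replicates 1 to 3. The groups overlapped because silenced replicate 1 exceeded control replicates 1 and 2, and the means were 7.67 ± 0.04 and 7.61 ± 0.06 (SD, n = 3). Counted gene by gene, the lowest of the 6 values fell on silenced replicate 2 in 16 genes, on silenced replicate 3 in 14 and on silenced replicate 1 in 5. It fell on control replicate 1 in 7 genes and on control replicates 2 and 3 in 2 each. The highest value fell on control replicate 3 in 17 genes and on no other array in more than 8. The lowest values thus fell mostly on silenced replicates 2 and 3, and the highest most often on control replicate 3. The same counts were not made over all tested genes.

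**Figure D3:**
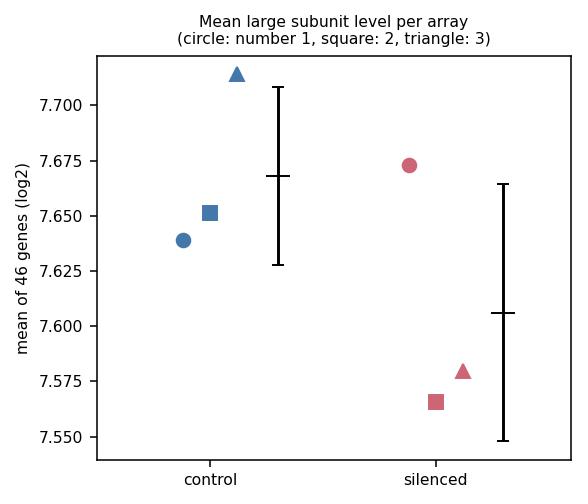
Mean log2 level of the 46 large subunit genes on each array (circles number 1, squares number 2, triangles number 3), with the group mean and SD beside the points. Silenced replicates 2 and 3 lie below all controls, while silenced replicate 1 lies between control replicates 2 and 3.

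The difference between groups was not alike in the 3 same-numbered pairs. Within number 1 the median over the 46 genes was 0.048, with 17 genes lower, while all tested genes had a median of 0.031. Within number 2 it was -0.11, with 33 lower, and within number 3 it was -0.18, with 36 lower, beside -0.0081 and 0.0094 for all tested genes. Of all 11292 tested genes, 4881, 5872 and 5421 were lower within numbers 1, 2 and 3. Lower values in all 3, 2, 1 and 0 pairs were found for 12, 21, 8 and 5 genes. The pattern of a higher value in pair 1 and lower values in pairs 2 and 3 occurred in 17 of the 46 (37.0%), beside 15.1% of all tested genes. With 1 array per group and number, this difference between pairs has no replicate check and was not tested.

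**Figure D4:**
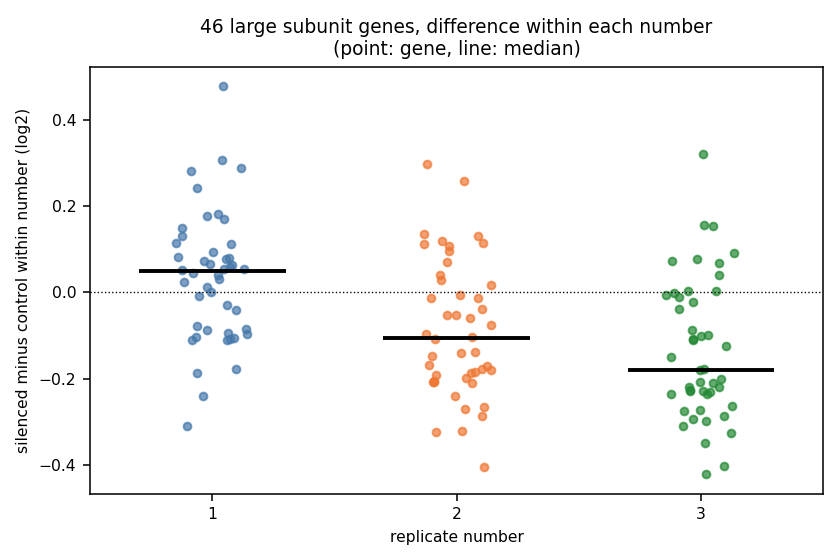
Silenced minus control (log2) of each of the 46 large subunit genes within replicate numbers 1, 2 and 3; each point is a gene and the line is the median. The median is 0.048 for number 1, -0.11 for number 2 and -0.18 for number 3.

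Without both arrays numbered 1 the median difference of the 46 genes was -0.13, with 37 lower and 0 passing the adjusted test. Leaving out single arrays moved the median between -0.11 when silenced replicate 1 was dropped and -0.064 when silenced replicate 3 was dropped, and the number of genes lower between 32 and 37.

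In some large subunit genes the gap between replicate numbers was wider than the gap between groups. In a fit with group and replicate number, limma's F test on the number passed an adjusted p under 0.05 for 0 of the 46 genes, beside 3.12% of all tested genes. The smallest adjusted p was 0.094, and 5 of the 46 had an unadjusted p under 0.05 (10.9%, beside 20.4% of all genes). Among the pairwise contrasts, which share arrays, 0 of the 46 passed for number 1 against 2 (2.75% of all genes), 0 for 1 against 3 (4.47%) and 0 for 2 against 3 (0%).

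Mrpl18, a protuberance protein of a family that binds ribosome-associated RNA in other ribosomes (chr17:12911345-12917787), had the smallest p for the number. It read 9.53, 9.14 and 9.31 in control and 9.56, 8.93 and 9.08 in silenced arrays. Both arrays numbered 1 lay above the other 4, and number 1 exceeded number 2 by 0.51 ± 0.10 (SE; adjusted p = 0.064) and number 3 by 0.35 ± 0.10 (SE; adjusted p = 0.128). A prior variance that follows intensity, an alternative in limma, brought Mrpl18 past the threshold (F test, adjusted p = 0.0048; range over the alternatives 0.0048 to 0.278), alone among the 46. Under that prior the F test passed for 1 of the 46 (2.17%, beside 9.65% of all genes). Number 1 against 2 was then called for Mrpl18, Mrpl15 and Mrpl2 (6.52%, beside 8.99%) and number 1 against 3 for Mrpl18 and Mrpl15 (4.35%, beside 9.65%). The second Mrpl18 row, with a lower mean level, read 7.38, 7.25 and 7.64 in control and 7.69, 7.22 and 7.09 in silenced arrays, where control replicate 1 was not the highest control. Here too the positions of the probes were not given, and which row reflects this locus was not tested.

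Mrpl15, a core protein conserved from bacteria, read 7.01, 6.70 and 6.74 in control and 7.08, 6.56 and 6.54 in silenced arrays. Both arrays numbered 1 were again the highest, exceeding number 2 by 0.42 ± 0.10 (SE; adjusted p = 0.092) and number 3 by 0.40 ± 0.10 (SE; adjusted p = 0.090). The treatment difference of Mrpl15 was -0.090 ± 0.16 (SE). Mrpl2 ran the other way, with its arrays numbered 1 the lowest of each group, and number 1 below number 2 by a difference of -0.35 ± 0.10 (SE; adjusted p = 0.117). Mrpl11 and Mrpl22 had their lowest values on the arrays numbered 2, with number 1 minus 2 at 0.31 ± 0.095 (SE; adjusted p = 0.138) and 0.55 ± 0.18 (SE; adjusted p = 0.165). Mrpl34 was highest on the arrays numbered 1, exceeding number 3 by 0.28 ± 0.092 (SE; adjusted p = 0.159).

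Across the 46 genes the arrays numbered 1 did not shift as one. Number 1 minus the mean of numbers 2 and 3 had a median of -0.072 in control arrays, with 16 genes higher, and of 0.11 in silenced arrays, with 33 higher. In 21 genes it was below 0 in control and above 0 in silenced arrays, and in 4 the opposite. These signs come from the same values as the differences within pairs above and are not a separate observation. All tested genes had medians of -0.0041 and 0.020 for the same differences, with 5523 and 6042 of 11292 higher. Genes with opposite signs in the groups were not counted over all tested genes.

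**Figure D5:**
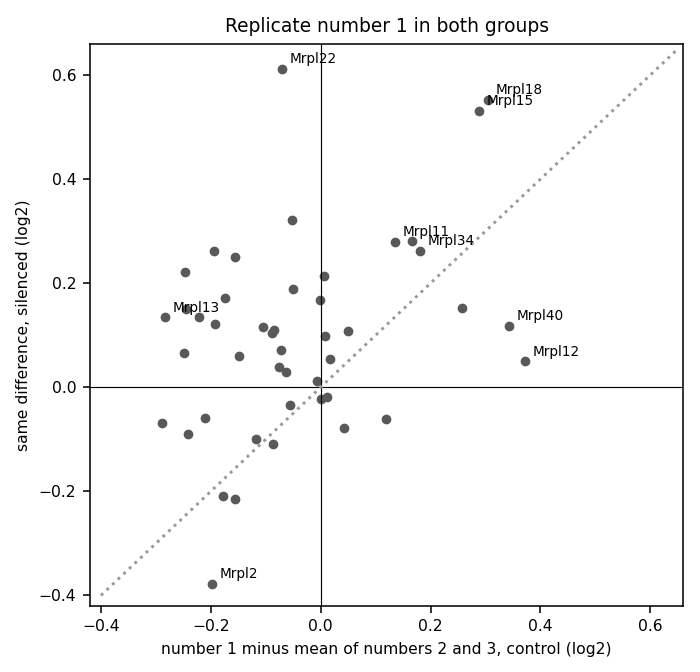
Number 1 minus the mean of numbers 2 and 3 (log2) in control arrays (horizontal) and in silenced arrays (vertical) for the 46 large subunit genes; the dotted line marks equal values. Mrpl18 and Mrpl15 are high in both groups and Mrpl2 low in both, while 21 genes lie at the upper left, lower in control and higher in silenced arrays.

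Other components of the mitochondrial ribosome and of its assembly give the setting. The 28 genes named Mrps are small subunit genes apart from Mrps30 and Mrps18a, which encode large subunit proteins and were counted with them. The 28 had a median difference of -0.033, with 17 lower (47.3% of all tested genes were lower). Of the 28, 2 (7.14%, beside 4.87% of all tested genes) had all silenced values below control. Their medians within numbers 1, 2 and 3 were 0.032, -0.081 and -0.076. The 71 tested cytosolic ribosomal protein genes had a median of -0.053, with 53 lower (beside 47.3% of all tested genes). Their medians within the numbers were -0.0070, -0.041 and -0.078. All silenced values lay below control in 9 of the 71 (12.7%, beside 4.87% of all tested genes) and above control in 0 (beside 6.94%). In all 3 same-numbered pairs, 21 of the 71 were lower (beside 15.8% of all tested genes) and 3 higher (beside 19.7%). A lean towards lower values was thus not particular to the large subunit. No test set the large subunit genes against these groups. The pair of large subunit proteins with small subunit symbols, Mrps30 (-0.091 ± 0.086, SE) and Mrps18a (0.11 ± 0.12, SE), differed in opposite directions, with limma's adjusted p of 0.885 and 0.898.

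Factors of mitochondrial translation and of large subunit assembly had medians near that of all genes. Of 13 tested translation factors, 6 had lower and 7 higher means (median 0.0070), and 0 passed limma's adjusted test. The ones with the smallest p were Guf1, a translation GTPase (-0.16 ± 0.090, SE), and Mtrf1l, a release factor (-0.36 ± 0.21, SE). Of 20 tested assembly factors, 10 had lower and 10 higher means (median 0.011), and again 0 passed. Gtpbp10, a GTPase of large subunit maturation, read 7.14, 7.35 and 7.29 in control and 7.11, 6.79 and 6.82 in silenced arrays. Its silenced values all lay below control, with a difference of -0.36 ± 0.11 (SE; adjusted p = 0.871) that was close to 0 within number 1 (-0.034). Mrm3, a methyltransferase of the large ribosomal RNA, differed by -0.24 ± 0.12 (SE; adjusted p = 0.871).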

How the data were processed

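Deposited values were log2 expression levels made by the authors with RMA, per the submitters' processing notes, which corrects background, equalizes array distributions and summarizes each probe set, and which compresses differences of dim genes. Its version and the definition of a probe set remain unstated in the labels and headers. Of 35556 probe sets, 21218 named 1 gene in the platform annotation and 1881 named several. Groups and replicate numbers came from sample titles. The groups were compared by limma 3.58.1 under R 4.3.3, using lmFit and eBayes, 2-sided, without covariates, with Benjamini-Hochberg adjustment over 11292 genes and a threshold of 0.05. A second fit held group and replicate number. Errors of differences are moderated standard errors (SE). Scripts were tested on simulated data. The number of arrays limits the precision.

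Same-numbered arrays deviated together (correlations of deviations from the group means 0.551, 0.354 and 0.422 over all genes), so arrays of 1 number were treated as pairs. Over the 46 large subunit genes the correlations were 0.365, 0.532 and 0.139 for numbers 1, 2 and 3, so the basis was weak there for number 3. The pairing rests on the data, since no label states it. Role groups and comparison lists were written from general knowledge, and the members, lists and tests were chosen with earlier results of these data known. Per-array values and tests are given for the 5 genes of each direction with the smallest p, the 6 with the smallest p for replicate number, the 2 highest and 2 lowest in mean level, and Mrpl12, Mrpl32, Mrpl41, Mrpl44, Mrpl45 and Mrpl58, and from each pathway list for the 2 with the smallest p. All 46 genes matched RefSeq by symbol. Alternatives were the replicate block, quantile normalization, median centring, other filters, the mean of a gene's rows, an intensity trend in the prior and leaving out arrays.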

Additional observations from a re-analysis of the deposited data

How the results depend on the processing

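With the replicate block, and under each of the other alternatives, 0 of the 46 large subunit genes passed limma's adjusted test for silenced against control. The block and the intensity trend change only the errors, since each number occurs once in each group. All 46 genes passed the filter, so leaving it out could not move their differences either. The unchanged median of -0.086 under these alternatives is therefore no check. Under the other alternatives the median difference of the 46 stayed below 0, at -0.069 for the mean of a gene's rows and between -0.11 and -0.064 over single arrays left out. The number of genes at an unadjusted p under 0.05 was 1 (2.17%, beside 4.8% of all genes), 0 without control replicate 3 (2.41% of all genes) or silenced replicate 2 (4.85%), 6 without silenced replicate 1 (13.0%, beside 7.14%) and 8 without both arrays numbered 1 (17.4%, beside 10.3%). For the replicate number, 352 of all genes passed, with 58 when no filter on low values was applied and 1090 with an intensity trend; the cause was not tested. Of 20 named genes, 13 kept their sign whichever array was left out. These include all of the 5 genes of each direction with the smallest p. Those were picked from these same arrays, which favours a stable sign, so the count is no check on them. Of the 13, 7 moved by over 1.5 times: Mrpl18 (-0.32 without silenced replicate 1 to -0.0055 without silenced replicate 2), Mrpl2 (0.051 to 0.29), Mrpl34 (0.15 to 0.32), Mrpl37 (0.048 to 0.11), Mrpl41 (-0.20 to -0.054), Mrpl48 (-0.29 to -0.15) and Mrpl52 (0.00084 to 0.073). The genes that did not keep their sign ranged from -0.19 to 0.013 (Mrpl11), -0.16 to 0.030 (Mrpl12), -0.27 to 0.0060 (Mrpl15), -0.18 to 0.29 (Mrpl22), -0.14 to 0.019 (Mrpl44), -0.11 to 0.096 (Mrpl45) and -0.060 to 0.051 (Mrpl58). After repeated quantile normalization Mrpl58 differed by -0.0021. For the replicate number, an intensity trend added the calls of Mrpl18, Mrpl15 and Mrpl2. The other alternatives for the number were looked at only by the F test of the 6 genes with the smallest p, and added no call there.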

Other observations

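Of the 3 genes without a row of their own, Mrpl24 shared a row with Rrnad1, Mrpl43 with Sema4g and Mrpl53 with Ccdc142. The Mrpl24 row read 8.72, 9.05 and 9.07 in control and 8.59, 8.79 and 8.77 in silenced arrays, a difference of -0.23 with overlap. The Mrpl43 row differed by 0.034 and the Mrpl53 row by -0.11. Which of the paired genes these rows reflect was not tested. Besides Mrpl18 and Mrpl51, 6 large subunit genes had a second row of their own that was not used, and these rows differed by 0.07 (Mrpl10), -0.036 (Mrpl12), -0.15 (Mrpl23), 0.05 (Mrpl27), 0.17 (Mrpl42) and -0.13 (Mrpl47). For Mrpl10, Mrpl27, Mrpl42 and Mrpl51 the direction was opposite to that of the row with the higher mean level. Rows that Mrpl41 shared with Dph7 were not used and differed by -0.11 and -0.045. A row that Mrpl19 shared with Gcfc2, also not used, differed by -0.099.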
